A study of Rattus norvegicus with 12 samples.

Results

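Single CpGs on rat chromosomes 10, 12, 19 and 20 were taken from the authors' deposited list of CpGs that differed between pancreatic islets of rats with intrauterine growth restriction (IUGR) and of control rats. Every listed CpG on these 4 chromosomes was kept once, which gave 666 of the 4376 CpGs listed in all. The other 16 numbered chromosomes held 3537, X held 172 and Y held 1. The members were chosen by chromosome alone, but every CpG had entered the list because its score differed between the groups.

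Both groups were endocrine islets isolated from the pancreas at an age of 2 weeks, with the condition labelled Control or IUGR. The labels give no strain, no sex and no account of how growth was restricted, and they do not say whether a replicate was 1 animal or a pool. Each group had 6 libraries, made with HpaII or MspI under 3 replicate numbers, whereas the score table has 3 control and 2 IUGR columns. Each column was taken as 1 replicate, so n = 3 and n = 2 throughout. No marker of islet cells is measured by this assay, so the tissue label could not be checked. Scores in bulk islet DNA also do not tell a change within cells from a change in the mix of cells, and this was not tested.

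HELP-tagging reads methylation at CCGG sites. HpaII cuts such a site only when its inner CpG is unmethylated, and MspI cuts it in either state, so the tags of one enzyme are scaled by those of the other. In mammalian genomes CpGs are rare over most of the sequence because methylated cytosine tends to mutate to thymine. They remain frequent in CpG islands, which are typically unmethylated and often lie at the starts of genes, so stretches rich in genes tend to be rich in CpGs. In islets, DNA methylation is part of how beta cells keep their hormone genes on and those of other cell types off. The deposited scores run from 0 to 100. The sources used here do not say which end is methylated, so only the direction of the score is reported.

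The 4 chromosomes were dense in genes, though not the 4 densest. In the RefSeq annotation of another rat assembly, GRCr8, chromosome 10 carried 16.6 protein-coding genes per Mb, chromosome 12 carried 12.9, chromosome 19 carried 11.6 and chromosome 20 carried 11.4. Chromosome 1 stood between chromosomes 12 and 19 at 11.7, and the other 15 lay below all of these. No position was carried over from that assembly. Positions below are on rn6, also named Rnor_6.0, per the submitters' processing notes. A genome of that build was not used here, so no sequence around the CpGs is shown and none was assigned to a gene, exon, intron or promoter.

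Per length, the 4 chromosomes were the richest in listed CpGs among the 20 numbered chromosomes. They held 2.40 listed CpGs per Mb against 1.53 on the other 16, a ratio of 1.58 (95% interval 1.45 to 1.71, from an exact Clopper-Pearson interval of their share). That interval covers counting error only and treats CpGs as independent. Chromosome 12 led with 3.21 per Mb, followed by chromosome 10 with 2.31, chromosome 20 with 2.23 and chromosome 19 with 2.04. The highest of the others was chromosome 16 with 1.91, and the lowest was chromosome 18 with 1.19. The length used was the last listed position, which falls short of the true chromosome end.

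The number of CpGs that could have been listed was higher on these chromosomes by nearly the same factor. The authors' table gives each CpG a running number that rises with chromosome and position up to 1797975. It was taken as a count of the CpGs the assay could report. On that count chromosome 12 had 1.10 running numbers per kb, chromosome 10 had 0.941, chromosome 20 had 0.898 and chromosome 19 had 0.850. The other 16 ran from 0.534 to 0.697, so there was no overlap. As sets, the densities were 0.942 and 0.634 per kb, a ratio of 1.49.

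Per running number the difference was smaller. The 4 chromosomes listed 2.55 CpGs per 1000 running numbers and the other 16 listed 2.41, a ratio of 1.06 (95% interval 0.975 to 1.15). With identical scores counted once it was 1.14 (95% interval 1.04 to 1.25). Matches were sought within a chromosome, where a longer list leaves more room for a match. The share of CpGs with a match was 33.9% on the 4 chromosomes and 41.6% on the other 16. Counting once therefore removed more from the other 16, which by itself raises the ratio. By share, they held 10.7% of the length of the numbered chromosomes, 15.1% of the running numbers and 15.8% of the listed CpGs. Chromosome 10 listed 2.46 per 1000, chromosome 19 listed 2.40 and chromosome 20 listed 2.48, ranks 7, 12 and 6 of 20. These lay inside the range of the other 16, which ran from 1.93 to 2.94. Chromosome 12 listed 2.93 per 1000, second to chromosome 16, and its ratio to the other 16 was 1.22 (95% interval 1.03 to 1.42). Without chromosome 12 the ratio of the remaining 3 was 1.02 (95% interval 0.924 to 1.12). No test across chromosomes was made, so none of these rates is called particular to the set.

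**Figure D1:**
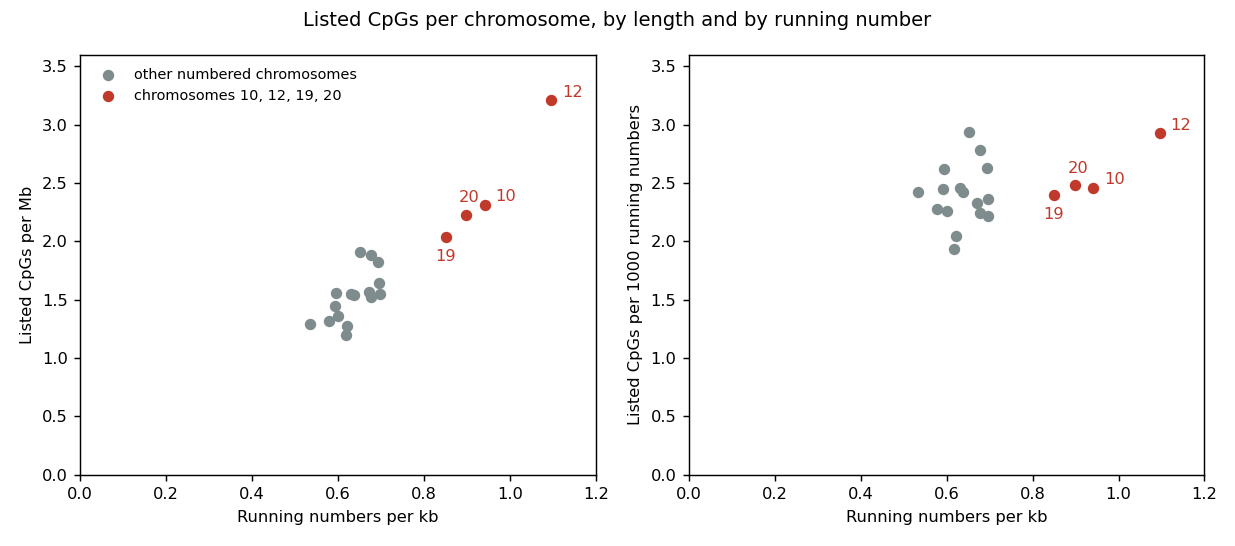
Each point is 1 of the 20 numbered chromosomes, placed by its running numbers per kb. In the left panel (listed CpGs per Mb) chromosomes 10, 12, 19 and 20, in red, are the 4 highest, from 2.04 to 3.21; in the right panel (listed CpGs per 1000 running numbers) chromosomes 10, 19 and 20 lie within the grey points, which run from 1.93 to 2.94.

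Across the 20 chromosomes, listed CpGs per Mb followed running numbers per kb (Pearson's r = 0.936, Spearman's rho = 0.808). Among the other 16 alone r was 0.648 and rho 0.624. Both measures share the chromosome's length as denominator, so these values are a description. Gene density in GRCr8 went with running numbers per kb as well (r = 0.843, rho = 0.865 over 20 chromosomes). Listed CpGs per 1000 running numbers went with density far less (r = 0.388, rho = 0.278), and among the other 16 hardly at all (r = 0.143, rho = 0.0412).

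Most listed CpGs on these chromosomes scored 0 in every control column and high in both IUGR columns. Of the 666, 605 scored higher and 61 lower in IUGR islets, which put 90.8% on the higher side (exact Clopper-Pearson 95% interval 88.4% to 92.9%). On the other 16 chromosomes it was 3227 of 3537, or 91.2% (90.3% to 92.1%). All intervals for rates and percents of CpGs cover counting error only and treat CpGs as independent, although they share the same score columns. With limma and Benjamini-Hochberg adjustment across all listed CpGs, every one of the 4376 CpGs had an adjusted p under 0.05, so the background of calls was 100%, of which 91.2% were higher and 8.8% lower. That all 666 members passed is therefore a property of the list. The largest adjusted p among them was 0.0455, and the standard error of the difference had a median of 3.32.

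At the 605 higher CpGs the control columns averaged 1.25, 1.32 and 1.24, and the IUGR columns averaged 81.3 and 81.4. The group means were 1.27 ± 0.0447 (SD, n = 3) and 81.3 ± 0.0485 (SD, n = 2). Control scores had a median of 0 in each column and reached at most 57.8, 52.1 and 57.8. IUGR scores ran from 47.2 to 99.2 in the first column, with a median of 82.6, and from 52.1 to 99.2 in the second, also with a median of 82.6. The averages of the groups lay far apart, while single control scores and single IUGR scores did overlap in range. All 3 controls were at 0 at 539 of the 605, and exactly 1 control was above 0 at 64.

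The remaining 2 higher CpGs were named because they had more than 1 control above 0. The CpG at 4425985 on chromosome 19 had control scores of 0, 16.6 and 16.6 and IUGR scores of 80.7 and 83.4. The CpG at 4896160 on chromosome 20 had control scores of 14.8, 14.8 and 28.2 and IUGR scores of 91.4 and 89.4, and was the 1 higher member with every control above 0. The groups did not overlap at either site, and both came from a list chosen on this difference.

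At the 61 lower CpGs the control columns averaged 84.6, 83.6 and 82.8 and the IUGR columns 0.952 and 0.512. The lowest control score was 43.0 and the highest 98.2. Both IUGR columns were at 0 at 58 of the 61. The 3 exceptions were at 54786302 on chromosome 19, with IUGR scores of 36.3 and 0, at 3447598 on chromosome 20, with 21.8 and 0, and at 3793665 on chromosome 20, with 0 and 31.2. All 3 kept every control above every IUGR score, in a list chosen on this difference. The median difference, IUGR minus control, was 78.4 at higher and -83.4 at lower CpGs, against 78.3 and -80.4 on the other 16 chromosomes.

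**Figure D2:**
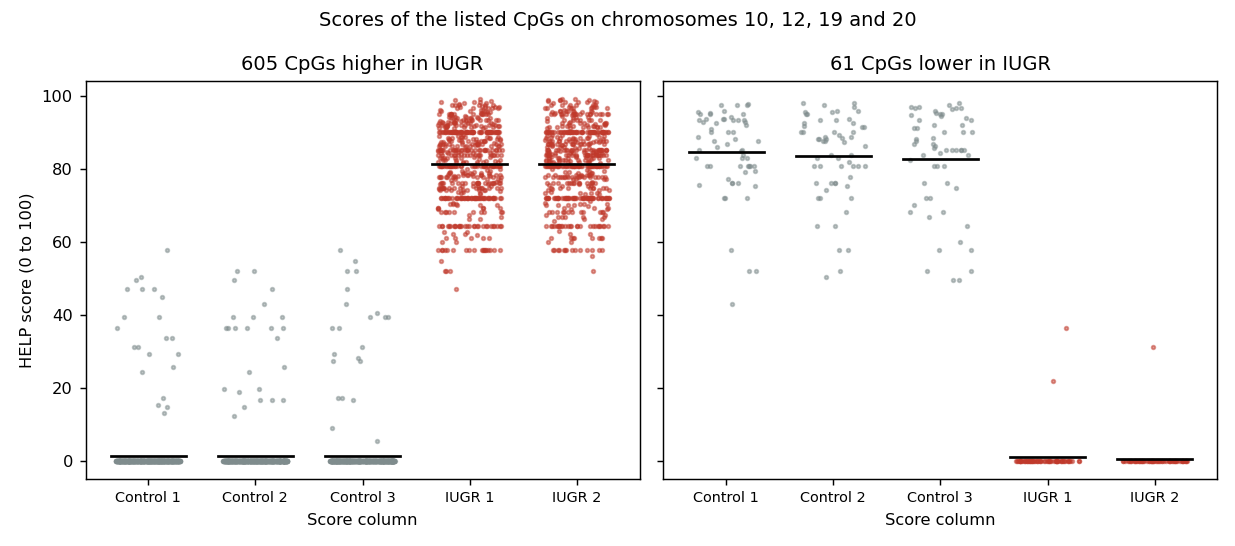
Each point is the HELP score (0 to 100) of 1 of the 666 CpGs in 1 of 5 score columns, spread sideways at random, and black bars are column means. In the left panel the control means are 1.25, 1.32 and 1.24 and the IUGR means 81.3 and 81.4; in the right panel the control means lie between 82.8 and 84.6 and the IUGR means are 0.952 and 0.512.

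At most of the higher CpGs the 2 IUGR columns gave different scores. At 91 of the 605 higher CpGs (15.0%) they were equal within 0.02. At 268 the first column was higher and at 246 the second. Across these CpGs Pearson's r between the columns was 0.138 and Spearman's rho 0.244, over CpGs that were all selected to be high in their mean. Scores also recurred. In the first column 90.14 was found at 67 CpGs (11.1%) and 72.12 at 53 (8.76%), and in the second 80.73 at 59 (9.75%). Of the 666 members, 226 (33.9%) shared all 5 scores with another member on the same chromosome, from 26.8% on chromosome 20 to 41.96% on chromosome 10. The share was 41.6% on the other 16. The tag depth behind a score is unknown.

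Chromosome 10 held the most members, 255, of which 241 were higher and 14 lower (94.5% higher, 95% interval 91.0% to 97.0%). Its largest differences spanned nearly the whole scale. The CpG at 10644320 was at 0 in all 3 controls and at 98.6 and 98.9 in the IUGR columns, which differed from controls by 98.7 (SE 0.244, limma adjusted p = 4.38e-08). That p-value is a description only, as the CpG was named for its size in a list chosen on this difference. The CpGs at 103551531 and 104905112 had identical scores, 0 in all controls and 98.3 and 99.0 in IUGR islets.

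Of the lower CpGs on chromosome 10, the one at 46576088 had control scores of 95.04, 90.1 and 95.04. The CpG at 6975258 had 97.7, 92.6 and 85.4, and the one at 7233644 had 96.0, 93.4 and 80.7. All 3 were at 0 in both IUGR columns. The 14 lower CpGs were spread from 4357317 to 106902265, and no stretch of 2 Mb held more than 2.

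In 10 Mb windows chromosome 10 had 34 listed CpGs both from 10 to 20 Mb and from 100 to 110 Mb, its highest counts. They were 2.996 and 2.37 per 1000 running numbers, since the second window had 1.43 running numbers per kb and the first 1.14. The longest stretch without a listed CpG ran from 77440007 to 82182370, 4.74 Mb, and took in 2703 running numbers.

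Chromosome 12, the densest, held 166 members, of which 143 were higher and 23 lower. Its share of higher CpGs, 86.1% (95% interval 79.9% to 91.0%), was the second lowest of the 20 chromosomes, above chromosome 9 at 85.0%. The CpG at 49870620 was at 0 in all controls and at 99.1 and 98.6 in IUGR islets, a difference of 98.8, the largest of all 666. The next were at 27041292, with IUGR scores of 97.5 and 98.6, and at 10390992, with 96.7 in both columns, each with controls at 0.

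The lower CpGs of chromosome 12 lay away from its end. None lay beyond 41266410, while 52 higher CpGs did. In 5 equal segments of its length, counted from the start, there were 9, 7, 3, 4 and 0 lower CpGs. Of these, 8 lay within 1.34 Mb, from 8114156 to 9455468, where only 3 listed CpGs scored higher. Their mean control scores ran from 84.1 to 96.8 with a median of 95.4, and both IUGR columns were at 0 at all 8. Among the other 16 chromosomes the most lower CpGs within 2 Mb were also 8, on chromosome 5, where 7 of the 8 shared their scores with another of the 8. Chromosome 9 had 7 lower CpGs within 0.847 Mb, from 93546136 to 94393327, with no higher CpG between them. No couple of those 7 had the same scores.

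Inside that stretch of chromosome 12, 6 listed CpGs formed a mirror image. This stretch was chosen after its values were seen. Going forward, the CpG at 8832791 was higher in IUGR islets, with 0 in all controls and 86.3 and 85.4. The next, at 8835558, was lower, with controls of 95.04, 98.2 and 97.2. The third, at 8865416, was lower, with controls of 93.4, 96.0 and 96.7. Going backward from 9042459, through 9039694 to 9009791, the same 3 sets of scores recurred in the same order, each equal in all 5 columns.

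The spacing was mirrored too. The distances were 2767 and 29858 bases in the forward set and 2765 and 29903 bases in the backward set, and the running numbers differed by 5 and 70 in both. Such a pattern is what 2 inverted copies of 1 sequence would give, but whether tags were shared between copies was not tested. The 6 CpGs are uncertain as separate sites. With identical scores counted once, the stretch held 6 distinct lower sets in place of 8. A search of every adjacent couple of single listed CpGs, regions not included, for a second couple with equal scores, equal running-number steps and distances equal within 1% found 2 on chromosome 12, both from this mirror. It found none on chromosomes 10, 19 and 20 and 4 on the other 16, all in the same order and none mirrored.

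Listed CpGs on chromosome 12 were more frequent in its first 20 Mb and from 40 to 50 Mb than between. The window from 40 to 50 Mb held 49, the most of any of the 26 full 10 Mb windows on the 4 chromosomes, where the median was 20.5. It also had 1.41 running numbers per kb, so its rate was 3.47 per 1000 running numbers. The windows from 0 to 10 and from 10 to 20 Mb held 31 and 40 listed CpGs, or 3.45 and 3.79 per 1000. The windows from 20 to 30 and from 30 to 40 Mb held 19 and 22, or 1.98 and 2.05 per 1000.

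Chromosome 19 held 122 members, 111 higher and 11 lower (91.0% higher, 95% interval 84.4% to 95.4%). The CpG at 14725234 was at 0 in all controls and at 99.2 and 98.3 in IUGR islets. The CpG at 28376927 was at 95.04 and 97.5 and the one at 39602099 at 97.5 and 95.04, with all controls at 0. Of the lower CpGs, the one at 54654185 had control scores of 97.5, 95.04 and 97.5, and the one at 15732546 had 93.4, 91.5 and 90.1. The third, at 53730924, had 80.7, 93.4 and 86.9. All 3 were at 0 in both IUGR columns.

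Lower CpGs on chromosome 19 lay near its end. In 5 equal segments there were 0, 1, 0, 2 and 8. On the other numbered chromosomes together the last segment also held the most lower CpGs, 111 of 310 (35.8%). Over all members, 34.4% of the lower CpGs fell in the first segment and 19.7% in the last. In segments of equal running numbers, the last held 63.6% on chromosome 19 and 26.5% on the other numbered chromosomes. These shares were not tested. On chromosome 19, from 53730924 to 54970220, 1.24 Mb, there were 6 lower CpGs and 2 higher. No 2 of the 6 lower CpGs had the same scores. Their control means ran from 74.3 to 96.7, and the highest IUGR score among them was 36.3. The last 9.9 Mb, from 50 Mb on, held the most listed CpGs of the chromosome, 36, at 1.49 running numbers per kb and 2.45 per 1000 running numbers. These running numbers reach past the length used, so the 1.49 is overstated and the 2.45 understated. The first 10 Mb held 9, at 0.419 running numbers per kb.

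Chromosome 20, which carries the rat major histocompatibility complex (RT1), held 123 members, 110 higher and 13 lower (89.4% higher, 95% interval 82.6% to 94.3%). Where that complex lies in this build was not looked up here. The CpG at 9429689 was at 0 in all controls and at 98.0 and 98.9 in IUGR islets. The CpG at 3659272 was at 97.2 and 96.0 and the one at 10393522 at 95.04 in both columns, again with controls at 0. Of the lower CpGs, the one at 30812399 had control scores of 97.8, 95.04 and 93.4. The CpG at 8299277 had 85.4, 90.1 and 95.04, and the one at 8478851 had 88.8, 88.8 and 74.9. These were at 0 in both IUGR columns.

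The last lower CpG on chromosome 20 was the one at 30812399, and 33 higher CpGs lay beyond it. In 5 equal segments there were 8, 3, 2, 0 and 0 lower CpGs. From 3394288 to 4615977 there were 5 lower and 6 higher CpGs. The fourth segment had the lowest rate of the 20 segments on the 4 chromosomes, with 6 listed CpGs, 0.4998 running numbers per kb and 1.09 per 1000 running numbers. The window from 10 to 20 Mb held 40, or 3.87 per 1000, the highest rate of the 26 full windows, and the window from 20 to 30 Mb held 10, or 1.34, the lowest. On the other 16 chromosomes 223 such windows ran from 0.572 to 4.50 with a median of 2.38, against 2.41 here.

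**Figure D3:**
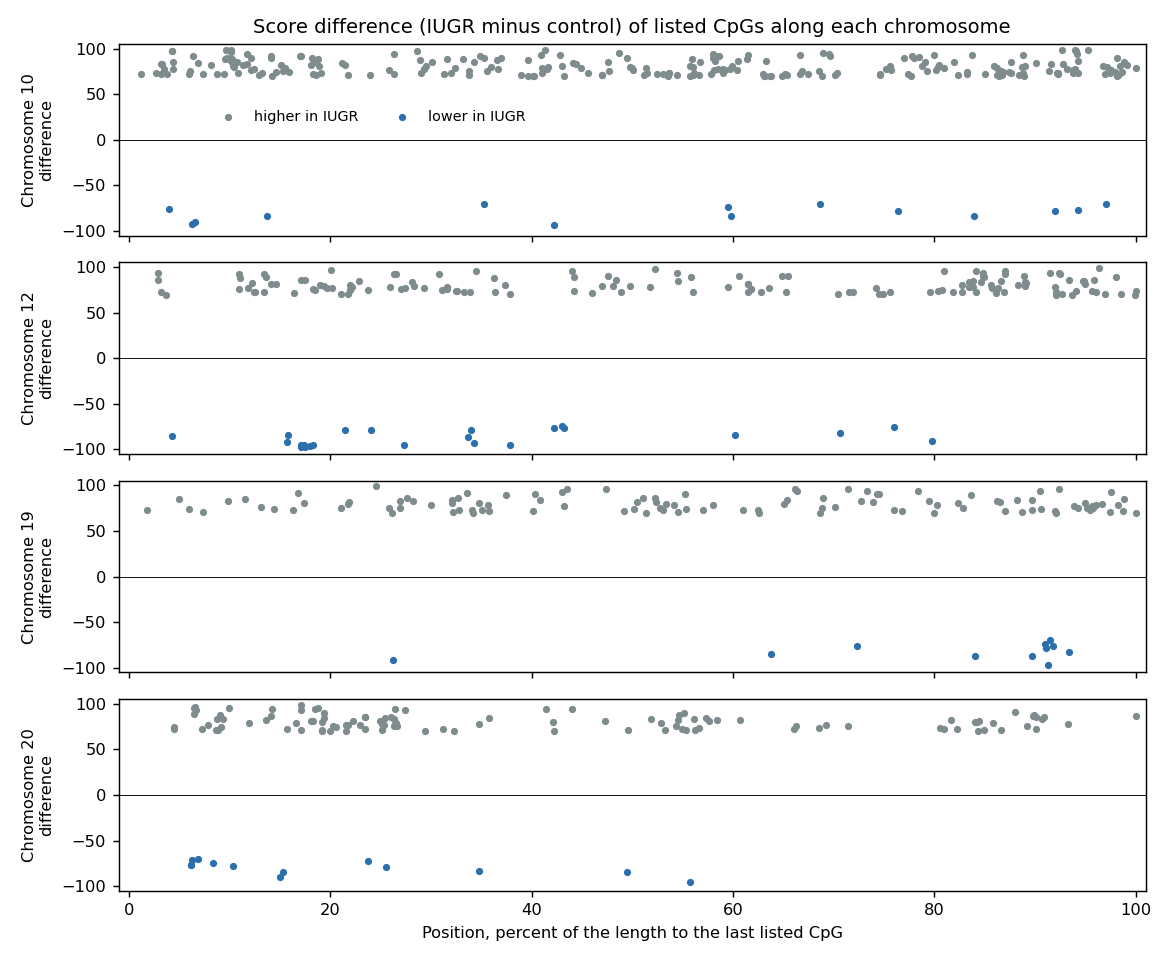
Each point is 1 listed CpG, placed by its position as a percent of the length to the last listed CpG of its chromosome and by its score difference, IUGR minus control. Grey points are higher and blue points lower in IUGR islets: the 23 lower CpGs of chromosome 12 end before 80% of its length, 8 of the 11 on chromosome 19 lie in the last of 5 equal segments, and the 13 on chromosome 20 end at 55.8% of its length.

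The place of the listed CpGs along the 4 chromosomes was set beside that of the running numbers, and differences between the shares were not tested. In 5 equal segments of the length the members fell 22.1%, 19.1%, 18.5%, 14.1% and 26.3%. On the other 16 chromosomes the shares were 19.7%, 18.9%, 15.5%, 19.7% and 26.2%. When the segments had equal numbers of running numbers in place of equal length, the members fell 22.7%, 21.2%, 19.8%, 16.4% and 19.97%, and the other 16 chromosomes 20.2%, 20.1%, 19.2%, 20.6% and 19.9%. On that count chromosome 12 ran from 26.5% in its first segment to 15.7% in the third, and chromosome 20 had 30.9% in its second. On chromosome 19 the last segment had 39 of 122 listed CpGs and 1.39 running numbers per kb, against 11 and 0.513 in the first. On chromosome 20 the order was the other way, with 41 listed CpGs and 1.37 per kb in the first segment and 21 and 0.823 in the last. Running numbers of the last segments reach past the length used, so their densities are overstated. Across the 26 windows the number of listed CpGs went with the running numbers they held (r = 0.757, rho = 0.730), as it did across the 223 other windows (r = 0.764, rho = 0.769).

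**Figure D4:**
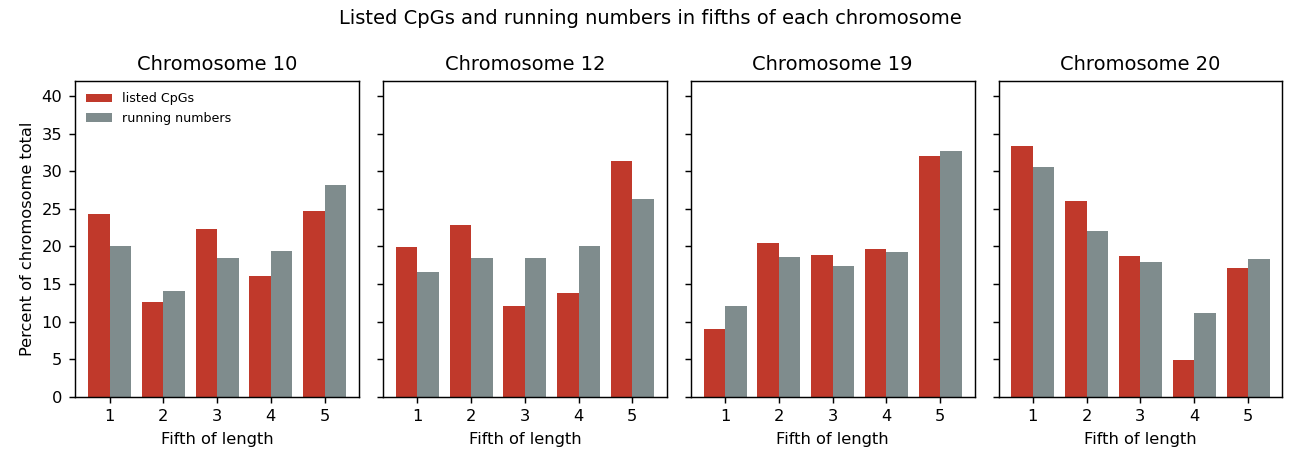
For each chromosome, red bars give the percent of its listed CpGs and grey bars the percent of its running numbers in each of 5 equal segments of the length to the last listed CpG. The last segment of chromosome 19 and the first of chromosome 20 are high in both, and the fourth segment of chromosome 20 is low in both, with 6 listed CpGs. On chromosome 12 the listed CpGs go from 38 in the second segment to 20 in the third, where the grey bars are nearly level.

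Running numbers lay closer together around the lower members than around the higher ones. Between the listed neighbours on either side, lower members had a median of 1.32 running numbers per kb and higher members 1.12. On chromosome 20 the medians were 1.54 and 1.27, on chromosome 19 they were 1.4996 and 0.899, on chromosome 12 they were 1.33 and 1.28 and on chromosome 10 they were 1.05 and 1.00. The same order was seen on the other 16 chromosomes, at 0.844 for lower and 0.731 for higher CpGs. Direction comes from the scores that chose the list, and these medians were not tested.

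Listed members were mostly far apart. The median step from one to the next was 176 kb on chromosome 12, 187 kb on chromosome 20, 260 kb on chromosome 10 and 327 kb on chromosome 19, against 221 to 589 kb on the other 16. Steps of at most 10 kb numbered 13 on chromosome 12, 9 on chromosome 20, 5 on chromosome 10 and 1 on chromosome 19. Steps of at most 1 kb numbered 2 on chromosome 12 and 2 on chromosome 20.

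The authors' second list, of regions with at least 4 CpGs, was denser on these chromosomes by running number as well as by length. They held 113 of the 511 regions on numbered chromosomes, 107 of them higher in IUGR islets and 6 lower. Per 1000 running numbers there were 0.433 regions against 0.271 on the other 16, a ratio of 1.60 (95% interval 1.29 to 1.98), where the ratio for single CpGs was 1.06. Chromosome 12 had 0.476, chromosome 10 had 0.434, chromosome 19 had 0.412 and chromosome 20 had 0.403, ranks 1, 2, 4 and 5 of 20. Chromosome 9, with 0.427, came between. Against the other 16, the ratio was 1.76 (95% interval 1.14 to 2.60) for chromosome 12 and 1.60 (1.15 to 2.19) for chromosome 10. It was 1.52 (0.932 to 2.36) for chromosome 19 and 1.49 (0.899 to 2.33) for chromosome 20, and these 2 intervals took in 1. All intervals for regions treat regions as independent. On chromosome 10 there were 3 couples of regions with identical scores in all columns and equal lengths within each couple, 2059, 3486 and 3817 bases. The couples of 3486 and 3817 bases began at 34882479 and 36975856 and at 34950734 and 37044420, each 2.09 Mb apart. These regions are uncertain as separate sites. Chromosomes 12, 19 and 20 had no such couple, and the other 16 had 6 couples with identical scores. With each couple counted once, as a choice made after seeing the data, chromosome 10 had 42 regions in place of 45 and a rate of 0.405, rank 4, below chromosomes 12, 9 and 19, and the ratio of the sets was 1.58 (95% interval 1.27 to 1.96). As listed, the other 16 ran down to 0.127 on chromosome 14. Per Mb the ratio was 2.38 (95% interval 1.91 to 2.93).

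**Figure D5:**
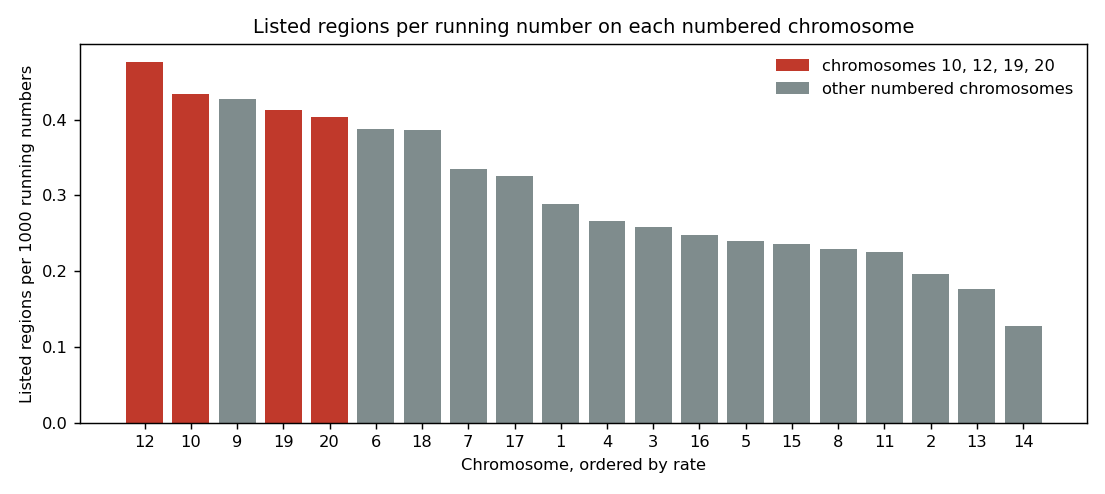
Bars give the listed regions per 1000 running numbers of each numbered chromosome, ordered from high to low, with chromosomes 10, 12, 19 and 20 in red and regions with identical scores counted separately. The red bars run from 0.403 to 0.476 and the grey bars from 0.127 to 0.427.

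A region needs several CpGs near each other, and running numbers were closer on these chromosomes. Regions per 1000 running numbers went with running numbers per kb across the 20 chromosomes (r = 0.698, rho = 0.639) and less so among the other 16 (r = 0.277, rho = 0.347). The part of this spacing in the higher rate was not tested. With regions of at least 6 CpGs alone the ratio was 2.04 (95% interval 1.42 to 2.90). The regions themselves were of like size, with a median of 5 CpGs in both sets, a median length of 2860 bases against 3132.5 and 1.80 against 1.67 CpGs per kb. The median difference was 21.1 here and 22.0 on the other 16.

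Region scores differed less between the groups than those of single CpGs, as the list of regions admits smaller differences. Over the 107 higher regions the mean was 19.4 ± 0.645 (SD, n = 3) for control columns and 42.2 ± 0.0542 (SD, n = 2) for IUGR columns. The 6 lower regions averaged 32.4 ± 1.41 (SD, n = 3) and 16.1 ± 1.05 (SD, n = 2). As with the CpGs, regions had been chosen on this difference. The lower regions here had a median control score of 27.3 and a median length of 1764.5 bases, whereas the 16 lower regions on the other chromosomes had medians of 81.2 and 340.5 bases. Those 16 include a couple with identical scores on chromosome 1, of 209 bases each, and another on chromosome 18, of 332 bases each. All of these were high in controls and uncertain as separate sites. The contrast of 6 with 16 regions was not tested.

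The largest positive differences are given by chromosome. On chromosome 10 the region from 88590975 to 88594149 had control scores of 0, 15.6 and 11.6 and IUGR scores of 62.5 and 53.3. The region from 102248112 to 102250104 had 0, 14.3 and 0 in controls and 51.1 and 53.7 in IUGR islets. Each held 1 listed CpG.

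On chromosome 12 the controls of the region from 7048178 to 7050210 were all at 0, and its IUGR scores were 34.4 and 39.0. The region from 11478554 to 11480237 had control scores of 27.6, 26.6 and 26.8 and IUGR scores of 64.8 and 60.6. On chromosome 19 the region from 57534120 to 57537839 had 12.7, 20.2 and 22.5 in controls and 61.8 and 60.5 in IUGR islets. Control and IUGR values were apart in all 3, which were named for their large differences.

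The second region of chromosome 19, from 10385848 to 10387369, had 10.2, 20.9 and 14.7 in controls and 54.8 and 50.5 in IUGR islets. On chromosome 20 the region from 3145461 to 3154507 was the longest of the 113, at 9047 bases with 12 CpGs. Its control scores were 19.1, 0.8 and 21 and its IUGR scores 54.8 and 44.6. The region from 4896106 to 4896500 had control scores of 57.3, 32.5 and 59.9, the widest spread among the named regions, and IUGR scores of 83.4 and 83.9. It held the CpG at 4896160, the one with every control above 0.

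The lower regions were few. On chromosome 10 the single one, from 84502238 to 84502586, had control scores of 23.8, 24.2 and 28.5 and IUGR scores of 11.9 and 11.4. On chromosome 12 the region from 40200221 to 40201894 had 61.0, 63.3 and 59.8 in controls and 39.3 and 38.8 in IUGR islets. The other named there, from 40067844 to 40068842, had 25.5, 24.2 and 31.4 and then 6.3 and 13.2. Both lay beyond all but 1 of the lower CpGs of that chromosome, the one at 41266410.

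On chromosome 19 the lower region from 59785131 to 59786985 had 25.6, 20.8 and 18.6 in controls and 6.3 in both IUGR values. On chromosome 20 the region from 8299277 to 8302566 had 21.3, 24.2 and 37.3 in controls and 8.8 and 12 in IUGR islets. It began at the lower CpG at 8299277. The groups did not overlap in any of the named regions. These were the largest differences in a list chosen on that difference, so the lack of overlap describes the choice. The share of all listed regions without overlap was not counted. With 3 against 2 replicates an exact permutation test has 10 splits, so a single region or CpG cannot reach a one-sided p under 0.1.

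Few members lay inside listed regions. Of the 666 members, 42 (6.31%) lay inside 39 of the 113 regions, and all 42 had the direction of their region. On the other 16 chromosomes 132 of 3537 (3.73%) did, inside 119 of 398 regions. As a share of regions that is 34.5% and 29.9%. Of the 42, 36 marked the start or the end of their region. A region's score includes its own CpGs, so the shared direction is not independent, and the difference in share was not tested.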

How the data were processed

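The labels describe 12 HELP-tagging libraries of rat islet DNA with positions on rn6, per the submitters' processing notes. For alignment, tag counting, normalization and filters, the sources used here name no tool or setting. The authors deposited a HELP score per CpG and replicate, with a p-value that is not adjusted, and a table of regions with their count of CpGs, scores and p-value, per the file headers. The names of the score columns do not tie them to libraries, so they were used by group. P-values measure only the spread between these columns, which may be technical. Of 4377 rows, 1 was repeated.

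Limma 3.58.1 (R 4.3.3) was fitted to all 4376 listed CpGs with no replicate term and Benjamini-Hochberg adjustment (threshold 0.05). Its code was also run on simulated normal scores, which were neither bounded nor selected as the listed scores were. That run checked the code and not the calls made here. Group means and differences were recomputed with Python 3.11.15, numpy 2.4.6, pandas 2.3.3 and scipy 1.17.1, and figures drawn with matplotlib 3.10.9. Chromosome borders in running numbers were set midway between neighbouring listed CpGs, and running numbers at window borders were interpolated. Rates between chromosomes have exact 95% intervals and no test. Tag depth is unknown.

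The CpGs named were, on each of the 4 chromosomes, the 3 highest and 3 lowest differences, and the regions the 2 highest and 2 lowest. The window named on each was the 10 Mb with the most listed CpGs. Other windows, all segments, and CpGs and regions named for other reasons were chosen after their values were seen. Members, lists and tests were chosen with earlier results of these data known.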

Additional observations from a re-analysis of the deposited data

How the results depend on the processing

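The ratio of listed CpGs per Mb lay between 1.45 and 1.70 over 15 alternatives and the ratio per 1000 running numbers between 1.02 and 1.14, each within the 95% interval of the value given. The interval of the second ratio lay above 1 in 3 of the 15, at 1.14 (1.04 to 1.25) with identical scores counted once, 1.14 (1.01 to 1.29) with a difference of at least 80 and 1.10 (1.003 to 1.204) without IUGR replicate 1, and took in 1 in the other 12. These alternatives counted identical scores once, asked for an authors' p of at most 0.01 or an absolute difference of at least 80, kept 1 CpG per 10 kb, left out each score column, added X, changed the borders or, as a choice made after seeing the data, left out each chromosome. Counting identical scores once has the limit given above, as matches were sought within a chromosome. The percent higher lay between 88.6% and 92.4% over 13. Requiring a difference of at least 80 left 309 of the 666 CpGs and moved the median absolute difference from 78.7 to 86.4, which follows from the cut. Without each column in turn, keeping CpGs at 70 or more, that median ran from 80.7 to 83.8. The share in the last of 5 equal segments was 26.3% by length and 19.97% by running numbers. The ratio of regions per running number was 2.04 with at least 6 CpGs and lay between 1.51 and 1.67 in the other 12 alternatives, 10 of which were added after seeing the data. Limma called 602 to 666 of the 666 members under its 7 alternatives, fewest when an IUGR column was left out, where the lone column is assumed to vary like the controls. No paired analysis was possible because the score columns do not carry the replicate numbers of the libraries. Every alternative keeps the authors' selection of CpGs, and with 3 against 2 columns and no tag depth none of them measures how many unlisted CpGs differ.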
